A study of Mus musculus with 4 samples.

Results

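Hyaluronan is a long sugar polymer of the extracellular matrix, and 9 of the 24391 genes in the count table were taken here as its core turnover machinery: the synthases Has1, Has2 and Has3, the degrading proteins Cemip, Tmem2, Hyal1 and Hyal2, and the binding proteins Cd44 and Tnfaip6. They were picked by symbol, by function and with the Phf2 KO to WT values of Cemip already known, so those values are given as a description of these libraries. How many of the 9 were called is given beside the share of all genes called, and nothing is read from it. RNA-seq was performed on primary mouse embryonic fibroblasts (MEFs) from E13.5 embryos, as 2 WT and 2 Phf2 KO libraries that the labels number as replicates 1 and 2. All 4 libraries carry the genotype Phf2 flox/flox, ERCre/+, in which the floxed Phf2 alleles can be cut out by CreERT2, a recombinase that is expressed from the Rosa26 locus and activated by 4-hydroxytamoxifen (4-OHT). Tamoxifen is given as a treatment only in the labels of the Phf2 KO libraries, and the descriptions of the WT libraries read noTamox. The protocol, arrest of confluent cells for 7 days in medium with 2% charcoal-treated serum and 0.5 µM 4-OHT, is worded alike for both groups, and the vehicle or medium of the WT cells of this experiment is not named. Loss of Phf2, Cre activity and 4-OHT therefore cannot be told apart. The sources used here do not state which embryos or cultures the libraries came from, so every p-value is set against only the spread between these libraries. The tests share that spread among genes, so a standard error can be smaller than the spread of its own gene.

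Has1, Has2 and Has3 sit in the plasma membrane, join UDP-glucuronic acid and UDP-N-acetylglucosamine into hyaluronan and push the growing chain out of the cell. Fibroblasts also take the polymer apart: Cemip is needed in skin fibroblasts for hyaluronan to be cleaved, Tmem2 is its membrane-anchored relative, Hyal2 is a hyaluronidase tethered to the cell surface and Hyal1 is the lysosomal hyaluronidase. Cd44 is the main cell surface receptor for hyaluronan, and Tnfaip6 (also called TSG-6) is a secreted protein that transfers protein heavy chains onto it.

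The promoters of Cemip, Has1 and Cd44 are shown because these genes are the most abundant degrading gene, the synthase with the largest Phf2 KO to WT ratio and the core gene with the largest difference called between the replicate numbers. The sequences are the 250 bases upstream of the start in the RefSeq table of GRCm38.p6, which held 6 of the 9 genes (the others being Hyal1, Hyal2 and Tnfaip6). Each matched mm9, the build of the study, at 1 place. They are written 5′ to 3′ on the strand of the gene, and capitals mark matches on either strand to the TATA box TATAAA, the CCAAT box, the GC box GGGCGG, the AP-1 motif TGACTCA and the E-box CACGTG. Positions are counted back from the start, so that the last base printed is the first upstream of it.
Cemip, chr7:91235016-91235265, reverse strand: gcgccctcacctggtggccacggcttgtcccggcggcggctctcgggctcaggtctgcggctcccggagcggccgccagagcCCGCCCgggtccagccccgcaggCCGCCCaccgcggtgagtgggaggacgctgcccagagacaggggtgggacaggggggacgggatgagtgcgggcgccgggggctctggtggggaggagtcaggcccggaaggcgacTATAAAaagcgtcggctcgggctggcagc
Has1, chr17:17992153-17992402, reverse strand: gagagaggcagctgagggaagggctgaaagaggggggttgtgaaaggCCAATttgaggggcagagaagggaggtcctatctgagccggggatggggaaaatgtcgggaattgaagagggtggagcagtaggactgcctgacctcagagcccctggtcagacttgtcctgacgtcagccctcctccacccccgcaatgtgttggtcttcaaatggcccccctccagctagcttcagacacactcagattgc
Cd44, chr2:102741823-102742072, reverse strand: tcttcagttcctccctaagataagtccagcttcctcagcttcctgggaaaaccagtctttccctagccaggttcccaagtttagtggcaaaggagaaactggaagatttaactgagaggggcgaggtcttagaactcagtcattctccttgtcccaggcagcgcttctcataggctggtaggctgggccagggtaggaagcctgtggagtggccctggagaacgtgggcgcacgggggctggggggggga

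The 250 bases upstream of Cemip were 75.2% G and C and held 26 CpG sites. Over all 32851 promoters in the table the median was 52.4%, with quartiles of 45.2 and 61.2, and the median number of CpG sites was 6, with quartiles of 2 and 16. The Cemip window held TATAAA with its first base at −29 and the reverse complement of GGGCGG with first bases at −168 and −145. TATAAA was found in 12.4% and GGGCGG in 32.7% of all promoters. The Has1 window held CCAAT at −203, a motif of 33.8% of all promoters, at 58.0% G and C with 4 CpG sites. The Cd44 window, at 56.4% G and C with 5 CpG sites, held none of these letters.

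The deposited values were whole read counts per gene, and the 4 libraries held between 21094743 and 26094268 of them. Levels are given as CPM, the count relative to the total of its library after scaling by TMM with factors between 0.983 and 1.01. Reads of the deleted gene, Phf2, numbered 3244 and 3680 in the WT libraries and 1454 and 2158 in the Phf2 KO libraries, a log2 fold change of −0.79 (standard error 0.14), and these counts cover the whole gene rather than the floxed exons. Xist, the RNA of the inactive X chromosome, had 10042 reads in WT and 8336 in Phf2 KO for replicates 1, and 3 and 12 reads for replicates 2. The Y-linked gene Ddx3y had 6 and 10 reads for replicates 1, and 1271 and 1295 for replicates 2. Fibroblast markers were abundant in every library, with 12 markers summing to between 57400 and 69070 CPM. The summed level of 19 macrophage markers was 4790 and 5286 CPM in replicates 1 and 1024 and 1590 CPM in replicates 2 of WT and Phf2 KO, and Lyz2, the most abundant, stood at 1325, 315, 1726 and 574 CPM in WT replicates 1 and 2 and Phf2 KO replicates 1 and 2. In WT replicates 1 and 2 and Phf2 KO replicates 1 and 2, muscle markers summed to 54.1, 24.9, 32.8 and 14.6 CPM. Of this, Des alone held 53.1, 23.5, 32.0 and 14.1 CPM. Endothelial markers summed to 22.1, 12.1, 16.3 and 9.53 CPM, of which Kdr alone held 18.3, 8.94, 12.5 and 5.62 CPM. Both sums, like Des and Kdr, were below the WT library of the same number in each Phf2 KO library. Under 20 counts in every library were 4 of the 6 muscle and 6 of the 8 endothelial markers. These went both ways, with Cdh5 counted 4, 0, 6 and 6 times and Myh3 9, 14, 2 and 1 times. The sums therefore describe mainly Des and Kdr rather than a cell type, and their part in the differences described here was not tested. Epithelial markers summed to at most 4.45 CPM and neural markers to at most 102.2 CPM. In RNA from whole cultures, fewer cells of a type and less RNA per cell cannot be told apart. All values in this account are listed in the order WT replicate 1, WT replicate 2, Phf2 KO replicate 1 and Phf2 KO replicate 2 unless stated otherwise.

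Per length, Cemip was far above the other 8 genes in every library. Levels of different genes were compared as CPM per kilobase of exon, with the exon length taken from the GENCODE vM1 annotation of mm9. On this scale Cemip stood at 166, 184, 285 and 254, against 20.4 to 24.5 for Hyal2, 6.76 to 12.2 for Cd44, 5.65 to 7.83 for Hyal1 and 3.24 to 3.78 for Tmem2. The order Cemip, Hyal2, Cd44, Hyal1, Tmem2 was the same in all 4 libraries, although the ranges of the neighbours Cd44 and Hyal1 overlapped. Tnfaip6, Has3, Has1 and Has2 followed, with levels per kilobase of at most 0.416, and they changed order among themselves except that Has2 was the lowest in all 4 libraries. Cemip made up 84.0%, 86.0%, 88.9% and 89.4% of the summed level of the 4 degrading genes per kilobase. Its level per kilobase was 352, 320, 446 and 460 times the summed level of the 3 synthases.

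**Figure D1:**
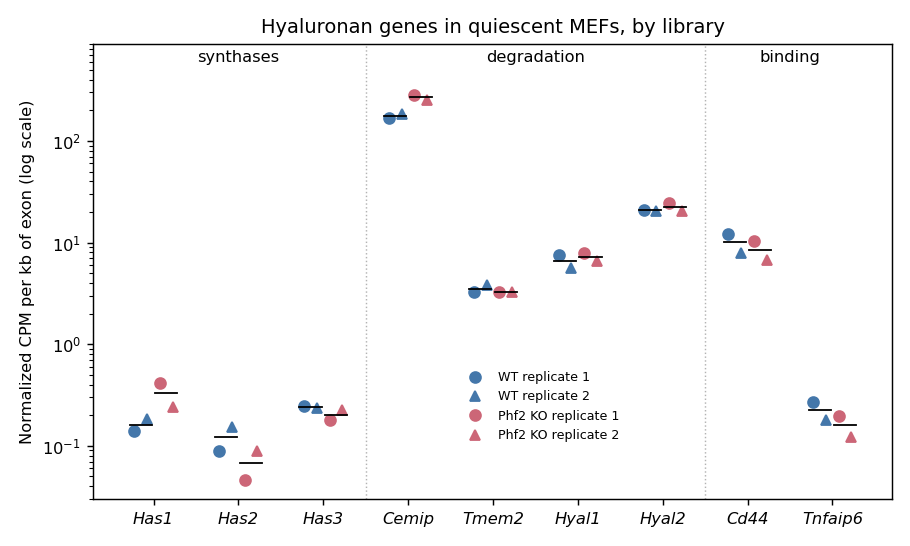
Level of each hyaluronan gene in each library, as normalized CPM per kilobase of exon on a log scale, ordered by role. Circles are replicates 1, triangles are replicates 2, blue is WT, red is Phf2 KO and the black bars are group means (n = 2); Cemip lies between 166 and 285 and the 3 synthases at or below 0.416.

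Of the synthases, Has1 and Has3 had groups that did not overlap, in opposite directions, and all 3 were counted at most 36 times in any library. Of the 13668 genes tested, 15.5% were above WT in both Phf2 KO libraries and 18.0% below, so nothing is read from this. Has1 (chromosome 17 of mm9, 17980292 to 17992152, reverse strand, 5 exon blocks) was counted 7, 10, 18 and 12 times, or 0.290, 0.385, 0.869 and 0.499 CPM. Both Phf2 KO libraries were above both WT libraries. The log2 fold change was 0.99 (standard error 0.50), with log2 ratios of 1.58 within replicates 1 and 0.37 within replicates 2. Has1 reached the minimum of 0.42 CPM in its Phf2 KO libraries alone, so it entered the fit through the group in which it was higher. Its summed counts were 17 in WT, with an exact Poisson interval at 95% of 9.90 to 27.2, and 30 in Phf2 KO, with an interval of 20.2 to 42.8, so the intervals overlapped. Such intervals cover counting error only and are not scaled for library size, and their overlap is not a test of a difference.

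Has2, the synthase that mouse embryos need, showed the opposite order but with overlapping groups. Has2 (chromosome 15, 56497182 to 56526094, reverse strand, 4 exon blocks) was counted 9, 17, 4 and 9 times, or 0.373, 0.655, 0.193 and 0.374 CPM. The WT replicate 1 and Phf2 KO replicate 2 libraries had the same count, and WT replicate 2 was the highest. Has2 missed the filter on low counts, and in the fit of all counted genes its log2 fold change was −0.84 (standard error 0.60). The summed counts were 26 (Poisson interval 17.0 to 38.1) in WT and 13 (6.92 to 22.2) in Phf2 KO. The antisense gene on the other strand, listed as Has2os, was counted 2, 0, 0 and 0 times.

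Has3 was the synthase with the most reads. The gene (chromosome 8, 109394142 to 109406802, forward strand, 4 exon blocks) was counted 35, 36, 22 and 32 times, or 1.45, 1.39, 1.06 and 1.33 CPM. Both Phf2 KO libraries were below both WT libraries, replicate 2 by little. The fitted log2 fold change was −0.24 (standard error 0.29), and the log2 ratios were −0.45 within replicates 1 and −0.06 within replicates 2. Leaving out Phf2 KO replicate 1 gave −0.09, and leaving out its replicate 2 gave −0.42. The Poisson intervals of the summed counts, 71 (55.5 to 89.6) in WT and 54 (40.6 to 70.5) in Phf2 KO, overlapped, which is not a test of a difference.

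Cemip, the secreted and membrane-bound protein of hyaluronan cleavage, was, of the 9, the gene whose groups lay furthest apart for their spread. It is on chromosome 7 from 91081367 to 91235012 on the reverse strand, with 28 exon blocks, and GENCODE vM1 names it 9930013L23Rik. Cemip was counted 49062, 58318, 72358 and 74790 times, or 2036, 2247, 3492 and 3111 CPM. Both Phf2 KO libraries were above both WT libraries, and the gap between the groups was wider than the gap within either. The means were 2141 ± 150 CPM (SD, n = 2) in WT and 3302 ± 269 CPM (SD, n = 2) in Phf2 KO, a ratio of 1.54. On the log2 scale the fitted change was 0.62 (standard error 0.13), with log2 ratios of 0.78 within replicates 1 and 0.47 within replicates 2. Over 10 alternative fits it stayed between 0.54 and 0.70.

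Cemip was among the most abundant transcripts of these cells. Its reads took 0.206% and 0.223% of all WT counts, against 0.343% and 0.314% of those of Phf2 KO. By count it ranked 43rd and 40th of 24391 genes in the WT libraries, against 20th and 24th in the others. Among the 100 genes with the highest mean CPM, in which it ranked 33rd, 0 had a larger log2 fold change upward. Cemip was picked with this value known, so its place is a description only. Only Postn, a matrix protein gene named after its values were seen, changed more in absolute terms, by −0.76. The median log2 fold change of the 100 genes was 0.05. In both Phf2 KO libraries 23 of them were above and 22 below WT, where 15.5% and 18.0% of all genes tested were.

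**Figure D2:**
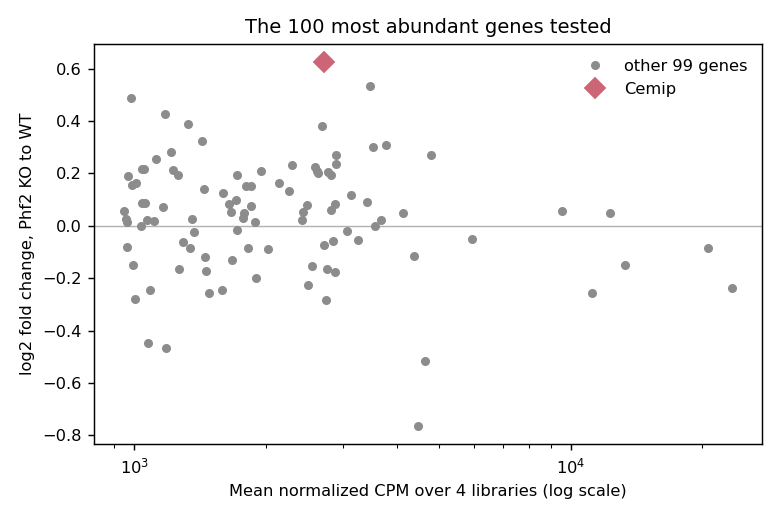
The 100 genes with the highest mean level, plotted as log2 fold change of Phf2 KO to WT against mean normalized CPM over the 4 libraries on a log scale. Each point is 1 gene and the red diamond is Cemip, which has the highest log2 fold change of the 100, 0.62; the lowest is −0.76.

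Tmem2, now also named Cemip2, had overlapping groups, unlike its relative. It was counted 521, 654, 453 and 521 times (chromosome 19, 21852832 to 21932817, forward strand, 25 exon blocks), or 21.6, 25.2, 21.9 and 21.7 CPM. The 2 Phf2 KO libraries and WT replicate 1 lay close together, and WT replicate 2 was higher. Tmem2 had a log2 fold change of −0.11 (standard error 0.12), and the log2 ratio was 0.02 within replicates 1 and −0.22 within replicates 2. Per kilobase, Cemip exceeded Tmem2 by 51.3 and 48.6 times in the WT libraries, against 87.1 and 78.2 times in the Phf2 KO libraries.

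The hyaluronidases Hyal1 and Hyal2 are neighbours on the forward strand of chromosome 9, and the groups overlapped for both. Hyal2 (107471448 to 107475107, 4 exon blocks) was counted 959, 1001, 962 and 927 times, or 39.8, 38.6, 46.4 and 38.6 CPM. Phf2 KO replicate 1 was the highest, and the other 3 libraries lay close together. Hyal2 had a log2 fold change of 0.12 (standard error 0.12), and it was −0.02 without Phf2 KO replicate 1. Hyal1 (107479258 to 107485174, 5 exon blocks) was counted 688, 558, 617 and 600 times, or 28.5, 21.5, 29.8 and 25.0 CPM. Replicates 1 were above replicates 2 in both groups. Between the groups the log2 fold change was 0.13 (standard error 0.18), and it was −0.08 without WT replicate 2 and 0.36 without WT replicate 1. Hyal1 overlaps Nat6 and Hyal3 on the same strand, so the division of reads among these 3 genes is uncertain.

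Cd44, the receptor, had overlapping groups and was higher in replicates 1 than in replicates 2 of both. Cd44 (chromosome 2, 102651298 to 102741822, reverse strand, 20 exon blocks) was counted 2021, 1398, 1458 and 1114 times, or 83.8, 53.9, 70.4 and 46.3 CPM. Each Phf2 KO library was below the WT library of its number, while Phf2 KO replicate 1 was above WT replicate 2, so the groups overlapped. The log2 fold change was −0.24 (standard error 0.30), with log2 ratios of −0.25 within replicates 1 and −0.22 within replicates 2. It was 0.13 without WT replicate 1 and 0.03 without Phf2 KO replicate 2, and −0.54 and −0.57 without the other 2 libraries in turn.

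Tnfaip6 (chromosome 2, 51893529 to 51912206, forward strand, 6 exon blocks) was close to the limit of counting. It was counted 11, 8, 7 and 5 times, or 0.456, 0.308, 0.338 and 0.208 CPM, and the groups overlapped in CPM. It missed the filter, and the log2 fold change in the fit of all counted genes was −0.49 (standard error 0.59). Summed counts were 19 (Poisson interval 11.4 to 29.7) in WT and 12 (6.20 to 21.0) in Phf2 KO.

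Of the 9 genes, then, Has1 and Cemip were above WT in both Phf2 KO libraries, Has3 was below, and 6 overlapped. The 2 above and the 1 below were among the 7 that passed the filter. Has1 passed it through its Phf2 KO libraries alone and Cemip was picked with its value known, so nothing is read from this tally. Across the 13668 genes tested, 15.5% were above WT in both Phf2 KO libraries and 18.0% below. Of the 7 genes that passed the filter, 0 were called by edgeR's quasi-likelihood test at an adjusted p under 0.1, where 0.00732% of all genes tested were called, and 1, Cemip, had an unadjusted p under 0.05, as had 576 of the 13668 genes. DESeq2 called 1 of the 9, Cemip, where it called 0.399% of all genes, and limma-voom called 0 of 7 and 0 genes in all, with 1 of the 7 at an unadjusted p under 0.05. With the replicate number as a further term in the edgeR fit, 2 of the 7 were called, Cemip higher and Cd44 lower, where 11.0% of all genes were called, 5.77% higher and 5.20% lower; the labels do not say that the numbers pair the libraries.

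The wider hyaluronan pathway was described with 45 more genes, chosen by function and not by how they moved, although earlier results of these data were known. All 45 were in the table and 31 passed the filter. By edgeR's quasi-likelihood test 0 of the 31 were called higher or lower in Phf2 KO MEFs, and 1, Gfpt2, had an unadjusted p under 0.05, as had 576 of all 13668 genes. DESeq2 called 0 of 37 and limma-voom 0 of 31, with 2 and 1 at an unadjusted p under 0.05. With the replicate number as a further term, edgeR called 4 of the 31, Stab1 higher and Gfpt2, Layn and Vcan lower, where 11.0% of all genes were called. The median log2 fold change was −0.03, against 0.01 over all genes tested. In both Phf2 KO libraries 2 of the 31 were above WT, where 15.5% of all genes tested were, and 5 were below, where 18.0% were, so the counts were no higher than over all genes. Those above were Ugp2 and Nf2, and those below were Gfpt2, Layn, Vcan, Hapln4 and Itih5; Ugp2, Nf2 and Itih5 were named after their values were seen, and Itih5 passed the filter through its WT libraries alone.

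Among the 8 genes that make the precursor sugars, Gfpt2 had the furthest log2 fold change from 0. Gfpt2, an enzyme of the first step from fructose 6-phosphate to UDP-N-acetylglucosamine, was counted 152, 149, 83 and 87 times, or 6.31, 5.74, 4.01 and 3.62 CPM. Both Phf2 KO libraries were below both WT libraries. Its log2 fold change was −0.66 (standard error 0.18, adjusted p = 0.999 by edgeR's quasi-likelihood test over all genes tested), with log2 ratios of −0.65 and −0.67 within replicates 1 and 2. Gfpt1, the more abundant enzyme of the same step and named after its values were seen, stood at 101.1, 101.9, 103.9 and 101.4 CPM, with a log2 fold change of 0.02 (standard error 0.07). Uap1l1, the most abundant of the group, stood at 211.8, 221.6, 242.8 and 218.6 CPM, with overlapping groups. The 8 log2 fold changes lay between −0.66 and 0.16, with a median of 0.00.

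Of the matrix proteins and receptors that bind hyaluronan, Vcan, Layn and Hapln4 were among those below WT in both Phf2 KO libraries, and edgeR called none without the replicate term, while it called Vcan and Layn lower with it. Vcan, the large proteoglycan versican, was counted 2238, 1745, 1257 and 1322 times, or 92.9, 67.2, 60.7 and 55.0 CPM. Both Phf2 KO libraries were below both WT libraries, WT replicate 1 was the highest, and the groups differed by −0.47 on the log2 scale (standard error 0.18, adjusted p = 0.999 by edgeR's quasi-likelihood test), or −0.21 without WT replicate 1 and −0.70 without WT replicate 2. Layn, the receptor layilin, was counted 719, 603, 448 and 453 times, a difference of −0.39 on the log2 scale (standard error 0.17, adjusted p = 0.999 by edgeR's quasi-likelihood test), or −0.19 without WT replicate 1 and −0.58 without WT replicate 2. Hapln4, a link protein that holds proteoglycans on hyaluronan, was counted 35, 38, 15 and 26 times, with a log2 fold change of −0.68 (standard error 0.34). Stab1, a scavenger receptor, was counted 4859, 1099, 4664 and 1810 times. Its replicates differed far more than its groups, and its log2 fold change of 0.30 (standard error 0.88) became 1.84 without WT replicate 1 and −0.70 without Phf2 KO replicate 1. The summed macrophage markers, given above, were high in the same 2 libraries, and their part in the values of Stab1 was not tested.

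Among genes of the other functions the groups mostly overlapped. Of the family of hyaluronidases, Hyal3 was counted 42, 37, 20 and 36 times with overlapping groups, Hyal6 0, 0, 1 and 2 times, and Hyal4, Hyal5 and Spam1 were counted 0 times in all libraries; all but Hyal3 are named after their values were seen. The lysosomal enzymes Hexa and Gusb, which trim sugars from the ends of cut chains, had log2 fold changes of −0.04 and 0.05, and Hexa, the more abundant, stood at 552, 452, 523 and 452 CPM. Msn, the most abundant of the 4 proteins that connect Cd44 to actin or limit that contact, stood at 635, 519, 599 and 487 CPM with overlapping groups. Ptx3, which crosslinks heavy chains on hyaluronan with Tnfaip6, stood at 83.8, 51.6, 79.1 and 50.9 CPM, and C1qbp, a hyaluronan-binding protein of the mitochondria and cell surface, at 91.0, 88.6, 92.2 and 84.0 CPM.

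**Figure D3:**
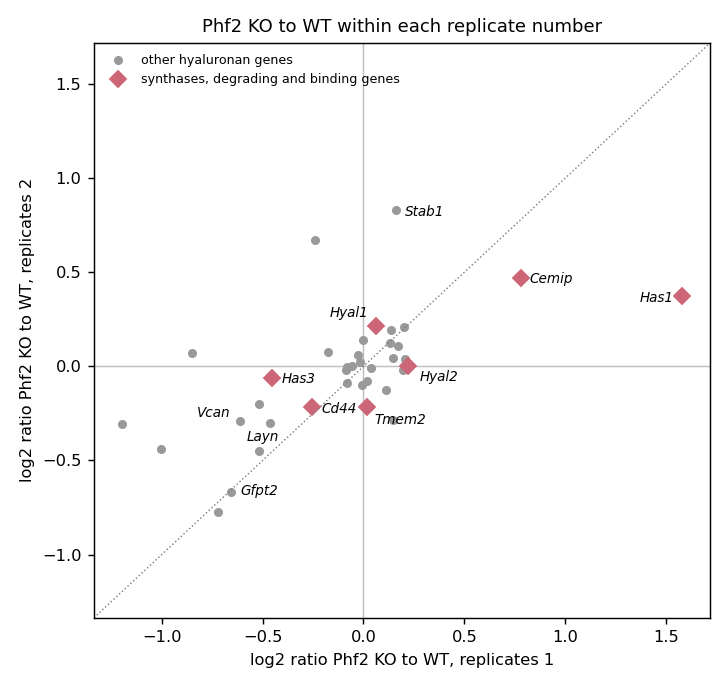
Log2 ratio of Phf2 KO to WT within replicates 1 (horizontal) and within replicates 2 (vertical) for the hyaluronan genes that passed the filter, with the core genes as red diamonds and the 31 others as grey circles. Points on the dotted line have equal ratios in both; Cemip is at 0.78 and 0.47, Has1 at 1.58 and 0.37, and Gfpt2 at −0.65 and −0.67.

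The replicate numbers gave a comparison that had no part in choosing the genes. Replicates 1 were compared with replicates 2 in a fit that held both genotype and replicate number, which leaves 1 residual degree of freedom. By edgeR's quasi-likelihood test, 3580 of 13668 genes, or 26.2%, were called, 13.6% higher in replicates 1 and 12.6% higher in replicates 2. Of the 7 hyaluronan genes tested 2 were called, Cd44 and Hyal1, both higher in replicates 1. Cd44 was higher in replicates 1 by 0.62 on the log2 scale (standard error 0.09, adjusted p = 1.13e-11 by edgeR's quasi-likelihood test), with log2 ratios of 0.64 in WT and 0.60 in Phf2 KO. Hyal1 was higher by 0.33 (standard error 0.10, adjusted p = 0.00749 by edgeR's quasi-likelihood test), with log2 ratios of 0.41 in WT and 0.25 in Phf2 KO. DESeq2 called Cd44 but not Hyal1. Of the genes that overlap Hyal1 on its strand, Nat6 was also higher in replicates 1, by 0.27 (standard error 0.09). Hyal3 differed by −0.11 (standard error 0.30). The division of reads among these genes is uncertain, and its part in the Hyal1 difference was not tested. Replicate number went with the Xist and Ddx3y counts, which were those of female cells in replicates 1 and of male cells in replicates 2 of both groups. Sex and replicate number therefore cannot be told apart. It also went with all 19 macrophage markers, which were higher in replicates 1 in both groups. The part of sex and of macrophages in the levels of Cd44 and Hyal1 was not tested.

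Cemip, in contrast to Cd44, was not called between the replicate numbers. The log2 difference of replicates 1 over replicates 2 was 0.01 (standard error 0.11, adjusted p = 0.965 by edgeR's quasi-likelihood test), with log2 ratios of −0.14 in WT and 0.17 in Phf2 KO. Tmem2 and Hyal2 differed by −0.11 (standard error 0.11) and 0.16 (standard error 0.09) and were not called. Has1 and Has3, at their low counts, had standard errors of 0.46 and 0.31.

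Of the 31 other hyaluronan genes, 14 were called between the replicate numbers, where 26.2% of all genes were, and 12 of them were higher in replicates 1, where 13.6% of all genes were. Among these were the lysosomal enzymes Gusb and Hexa, the receptors Hmmr, Layn, Stab1, Stab2, Tlr2 and Tlr4, and Msn, Ptx3 and Vcan. All 6 receptors that passed the filter were thus higher in replicates 1. Stab1 was the furthest, by 1.91 on the log2 scale (standard error 0.09, adjusted p = 8.90e-103 by edgeR's quasi-likelihood test). Its log2 ratios were 2.25 in WT and 1.58 in Phf2 KO. Those ratios lay further apart than the standard error, which rests on a spread shared among genes. Gusb was higher by 0.95 (standard error 0.08, adjusted p = 6.07e-28 by edgeR's quasi-likelihood test). Msn lies on the X chromosome, and the part of sex in its level was not tested. The neural proteoglycan Bcan and the heavy chain gene Itih2 were called higher in replicates 2. The median log2 difference of the 19 macrophage markers was 2.04, larger than that of each of these 12 genes. DESeq2 called 1 of the 7 core genes and 6 of the 31 others, where it called 10.1% of all genes.

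**Figure D4:**
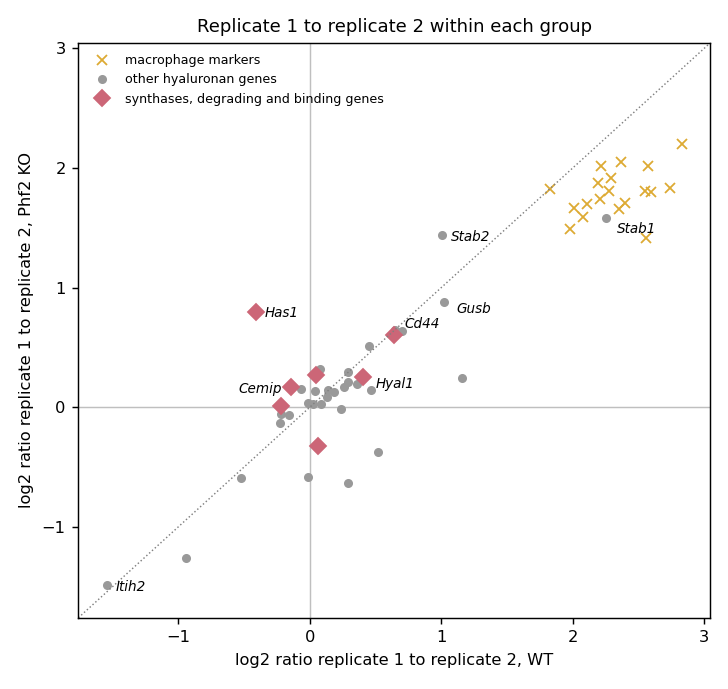
Log2 ratio of replicate 1 to replicate 2 in WT (horizontal) and in Phf2 KO (vertical), for core hyaluronan genes (red diamonds), other hyaluronan genes that passed the filter (grey circles) and 19 macrophage markers (yellow crosses). Cd44 is at 0.64 and 0.60 and Cemip at −0.14 and 0.17, while all 19 macrophage markers lie above 0 in both groups.

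The 5 genes with levels most like those of Cemip over the 4 libraries were Snrpf, Sgca, Fam98c, Junb and Hnrnpa3. Likeness was measured as the Euclidean distance between log2 CPM values centred on their mean, over 4 libraries and 13655 genes, and the distances were 0.08, 0.08, 0.08, 0.09 and 0.10. Snrpf encodes a spliceosome protein, Sgca a sarcoglycan, Junb a subunit of the AP-1 transcription factor and Hnrnpa3 an RNA-binding protein. Junb stood at 35.3, 36.4, 55.8 and 50.3 CPM and Fam98c at 5.23, 6.09, 9.07 and 7.82 CPM, while Snrpf, Sgca and Hnrnpa3 were at most 4.87 CPM in every library. Sgca, at 0.332, 0.347, 0.579 and 0.499 CPM, reached the minimum of 0.42 CPM in its Phf2 KO libraries alone. It was therefore compared only through the group in which it was higher, and nothing is read from its likeness. With 4 libraries, many genes can share such a pattern, and the likeness is a description only.

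The genes beside Cemip on chromosome 7 had lower levels and lower ratios. Cemip was picked with its ratio known, so this contrast is a description only. Within 500 kb of Cemip, 10 other genes of the annotation were in the table and 8 of them passed the filter; they were taken by position, and are named after their values were seen. Their log2 fold changes lay between −0.30 and 0.23. Abhd17c, which starts 65.4 kb upstream of Cemip, was the 1 gene above WT in both Phf2 KO libraries, with 59.6, 60.4, 75.2 and 65.4 CPM. Arnt2 and Mesdc2 were below WT in both, and the groups overlapped for Stard5, Il16, Mesdc1, Gm2115 and Fah. Of all genes tested, 15.5% were above WT in both Phf2 KO libraries and 18.0% below, so nothing is read from these counts.

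**Figure D5:**
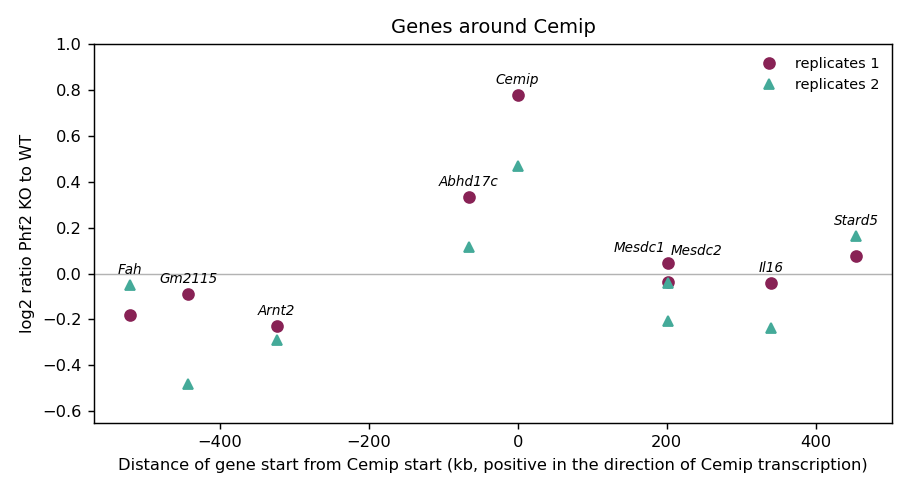
Log2 ratio of Phf2 KO to WT for Cemip and the 8 neighbouring genes that passed the filter, against the distance of each gene's start from the Cemip start in kb, positive in the direction in which Cemip is transcribed. Circles are ratios within replicates 1 and triangles within replicates 2. Cemip, picked with its ratio known, is at 0.78 and 0.47, above every neighbour in both.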

How the data were processed

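RNA was sequenced as single reads. By the study's methods and the submitters' processing notes, the authors trimmed the reads with Trim Galore, removed ribosomal RNA with Bowtie2, aligned the remainder with STAR (reverse stranded, mm9) and counted genes with featureCounts. Tool versions are not given in the sources used here. The deposited values are whole counts per gene symbol without normalization. The authors' table of their DESeq2 comparison (fold changes and p-values) was not used.

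The tests used edgeR 4.0.16 in R 4.3.3 (filterByExpr, TMM, glmQLFit, glmQLFTest, Benjamini-Hochberg over all genes kept, adjusted p under 0.1), which kept 13668 genes. Log2 fold changes of Has2 and Tnfaip6 came from a fit of all genes with at least 1 count. DESeq2 1.42.0, limma 3.58.1 (voom), other scalings, no filter, a threshold of 0.05, the replicate block and fits without 1 library were alternatives. Tables, promoter searches and figures used Python 3.11.15, pandas 2.3.3, NumPy 2.4.6, SciPy 1.17.1 and Matplotlib 3.10.9.

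The genes and lists were chosen with earlier results of these data known. Named genes were the 9 core genes, Phf2, genes of the wider list that were called in any fit or were the most abundant of their function, the 5 genes nearest to Cemip, the most abundant macrophage marker, Xist and Ddx3y; genes that overlap a core gene are named for their position, and others are said to be named after their values were seen. Positions are those of GENCODE vM1 on mm9, and exon lengths are unions over transcripts. The values of 1 gene of the wider list are not reported here.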

Additional observations from a re-analysis of the deposited data

How the results depend on the processing

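Between Phf2 KO and WT, edgeR's quasi-likelihood test called 1 of 13668 genes, 0 at an adjusted p under 0.05, and 0 to 0 with each library left out in turn; DESeq2 called 64 and limma-voom 0. Of the core hyaluronan genes 0 were called, where 0.00732% of all genes tested were, against 1 by DESeq2, where 0.399% of all genes were. Whether the replicate numbers pair the libraries is not stated, though libraries of the same number were alike in Xist and Ddx3y. Across 13668 genes, not independent of each other, the log2 ratios of replicate 1 to replicate 2 had a Pearson's r of 0.809 between the groups. In the edgeR fit with a replicate block, 1500 genes (11.0%) were called, 789 (5.77%) higher and 711 (5.20%) lower. This included 2 core genes, Cemip higher and Cd44 lower, and 4 of the 31 other hyaluronan genes, Stab1 higher and Gfpt2, Layn and Vcan lower. Between the replicate numbers DESeq2 called 1361 genes (10.1%) against 3580 (26.2%) and 1 core gene against 2. The causes of these differences were not tested.

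Of the values of single genes under alternatives, 136 kept their size within the spread of the replicates or their side of the threshold. Another 4 moved further (Has3, Hyal2, Stab1 and Vcan, each without 1 library), and 1, Hyal1 between replicate numbers, was no longer called by DESeq2. Kept does not mean a stable sign. Among the kept Phf2 KO to WT values, the sign changed in 2 of 10 alternatives each for Cd44, Hyal1 and Stab1. Cemip was counted as kept by its size, although DESeq2 and the replicate block called it. Leaving out libraries for the comparison of replicate numbers could not be fitted, since 3 libraries leave no residual degree of freedom. With counts of at most 18 per library, Has1, Has2 and Tnfaip6 are limited by depth. TMM, RLE and library size alone moved the median of all genes by less than 0.1 on the log2 scale.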
